A study of Rattus norvegicus with 6 samples.

Results

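The carriers of folate, thiamine, biotin, pantothenate and vitamin C were followed in the lateral ventricle choroid plexus of the rat from E19 to the adult. They comprised 7 of the 14217 genes that had a probe set annotated to them alone, and the choice was by name: the folate receptor gene Folr1, the folate carrier genes Slc46a1 and Slc19a1, the thiamine carrier gene Slc19a2, the biotin and pantothenate carrier gene Slc5a6, and the vitamin C carrier genes Slc23a2 and Slc23a1. Each gene was represented by the probe set with the highest mean intensity over the 6 arrays. Of the 7 genes, 6 passed the filter on low values and were among the 10334 genes tested. Slc23a1 stayed below it at every stage.

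The plexuses came from Sprague-Dawley rats at 3 stages: fetuses at embryonic day 19 (E19), pups at postnatal day 2 (P2) and adults. Each stage had 2 arrays, and each array held RNA of a separate pool of 6 to 10 plexuses, so that a value is the average of several animals. The study's methods give fewer animals per adult pool than per pool of fetuses or pups, so pool size changes with stage. The labels name no treatment and no altered gene at any stage. According to the study's methods the adults were males and the plexuses were dissected under a stereomicroscope. The sex of the fetuses and pups was not given in the sources used here, so sex and stage cannot be told apart in the comparisons with the adult.

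The choroid plexus epithelium stands between blood and cerebrospinal fluid and supplies the fluid with vitamins that the brain cannot make. Folate receptor alpha, the product of Folr1, binds 5-methyltetrahydrofolate and carries it through the epithelial cell, the proton-coupled transporter encoded by Slc46a1 moves folate across membranes at acid pH, and the reduced folate carrier encoded by Slc19a1 exchanges folate for organic anions. The thiamine transporter of Slc19a2, the sodium-dependent multivitamin transporter of Slc5a6 and the sodium-dependent ascorbate transporters of Slc23a1 and Slc23a2 take up the other vitamins.

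The carriers were lower before and just after birth than in the adult, or were not distinguishable from it, and no carrier was called higher. At E19, 3 of the 6 tested carriers (Slc19a1, Slc19a2 and Slc5a6) were lower than in the adult at an adjusted p under 0.05 by limma, and at P2 4 were (the same 3 and Slc46a1). Over all 10334 genes, 25.2% were called lower and 31.4% higher at E19, and 21.8% were called lower and 28.8% higher at P2. All 6 carriers had both E19 arrays below both adult arrays, which held for 38.6% of all genes. At P2, 5 of the 6 lay below the adult without overlap, against 36.1% of all genes. The median difference of the carriers from the adult was -0.45 on the log2 scale at E19 and -0.55 at P2, beside 0.04 and 0.05 over all genes. Both comparisons use the same 2 adult arrays. In whole tissue, fewer cells of a type and less RNA per cell cannot be told apart.

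**Figure D1:**
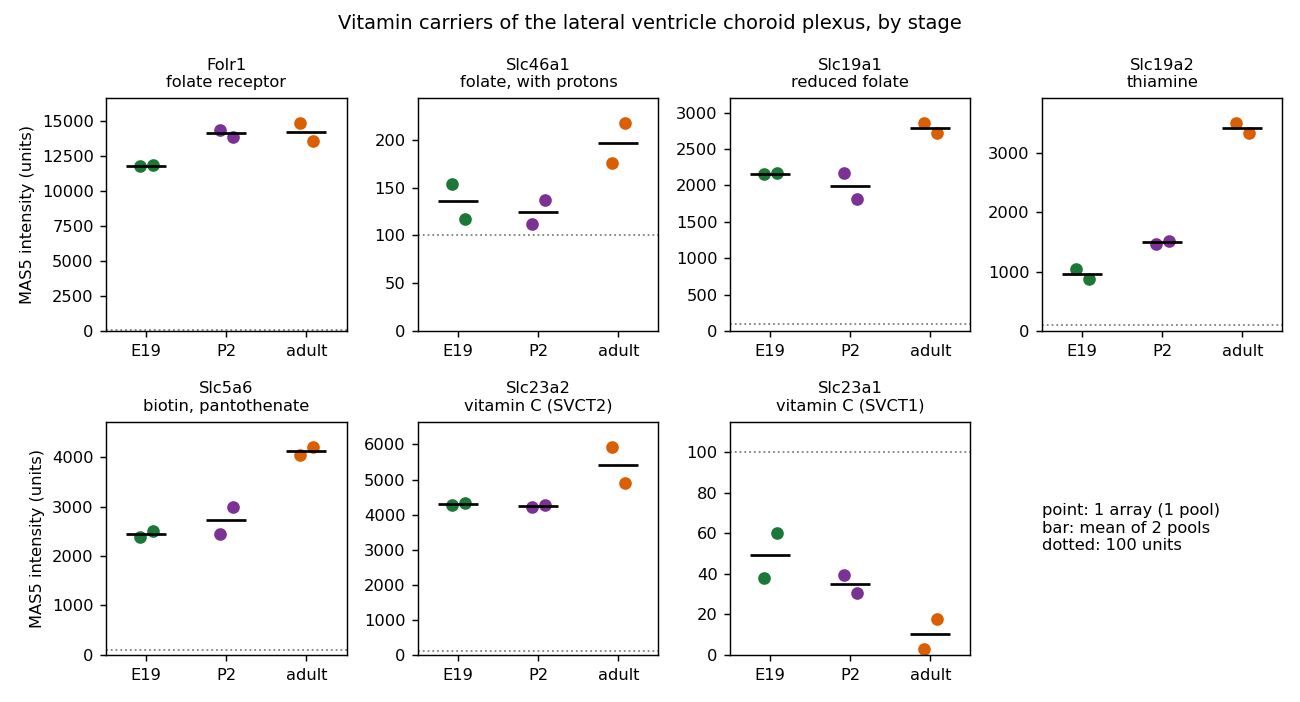
Deposited MAS5 intensity (linear scale, in units) of the 7 carriers on each array, by stage. Each point is 1 array of 1 pool, the bar is the mean of the 2 pools, the dotted line marks 100 units, and each panel has its own scale starting at 0. The adult points of Slc19a2 (3502 and 3339 units) lie far above those of E19 and P2, while all 6 points of Slc23a1 lie under 100 units.

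Folr1 was bright at every stage. Its intensity was 11735 and 11839 units at E19, 14326 and 13864 at P2, then 14836 and 13533 in the adult. Both E19 arrays were the lowest of the 6, and the P2 arrays fell between the adult ones. The E19 level was below the adult by 0.27 on the log2 scale (log2 difference -0.27, 95% interval -0.49 to -0.04), and limma's adjusted p of 0.0536 missed the threshold. At P2 the log2 difference was -0.01, with an interval of -0.24 to 0.22 (limma, adjusted p = 0.949). The E19 difference stayed uncalled in 10 of the 16 alternative analyses and passed in the others. Among these were testing only probe sets that reached 200 units (adjusted p = 0.0381 by limma) and letting limma's prior spread follow intensity (0.0019). The call at E19 thus moved with the processing.

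Slc46a1 was measured near the lower limit of the array. The probe set read 154 and 117 units at E19, 112 and 137 at P2, then 176 and 217 in the adult. The adult arrays were the highest, and those of E19 and P2 overlapped. At P2 the level was 1.58-fold below the adult (log2 difference -0.66, 95% interval -1.16 to -0.15, limma adjusted p = 0.0423). At E19 it was 1.45-fold lower with an adjusted p of 0.0676, which did not pass (limma; interval -1.04 to -0.04). The P2 call was lost when any single P2 or adult array was left out, with limma adjusted p from 0.0523 to 0.166.

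Slc19a1, the reduced folate carrier, gave 2154 and 2174 units at E19, 2177 and 1811 at P2, then 2858 and 2725 in the adult. The 2 adult arrays stood above the other 4, and E19 and P2 overlapped. The gene was 1.29-fold lower at E19 (log2 difference -0.37, interval -0.66 to -0.07, limma adjusted p = 0.0444) and 1.41-fold lower at P2 (log2 difference -0.49, interval -0.79 to -0.20, limma adjusted p = 0.0204). Leaving out either E19 array or either adult array ended the E19 call, with limma adjusted p from 0.0929 to 0.154. The P2 call ended without P2 replicate 2 (0.0611), adult replicate 1 (0.0742) or adult replicate 2 (0.0546).

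Slc19a2, the thiamine carrier, differed most between the stages among the 6 tested carriers. The arrays read 1049 and 873 units at E19, 1472 and 1525 at P2, then 3502 and 3339 in the adult, which gives means of 961 ± 124, 1499 ± 37.2 and 3421 ± 116 units (SD, n = 2 pools each). The 3 stages did not overlap, with E19 lowest and the adult highest. The gene was 3.57-fold lower at E19 than in the adult (log2 difference -1.84, 95% interval -2.13 to -1.54, limma adjusted p = 0.000325). The P2 level was below the adult 2.28-fold (log2 difference -1.19, interval -1.49 to -0.89, limma adjusted p = 0.0014). Both calls held in all 16 alternative analyses, with log2 differences of -2.11 to -1.71 at E19 and -1.45 to -1.14 at P2.

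Slc5a6, whose product takes up biotin, pantothenate and lipoate, read 2396 and 2513 units at E19, 2450 and 2994 at P2, then 4043 and 4215 in the adult. Both adult arrays were above all others, and the stages E19 and P2 overlapped. The gene was 1.68-fold lower at E19 (log2 difference -0.75, interval -1.06 to -0.44, limma adjusted p = 0.00554) and 1.52-fold lower at P2 (log2 difference -0.61, interval -0.92 to -0.30, limma adjusted p = 0.0126). The E19 call held in all 16 alternatives, with log2 differences of -1.03 to -0.68. The P2 call was lost with no filter (limma adjusted p = 0.05925) and without adult replicate 2, where the log2 difference was -0.58.

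The promoters of these 2 genes are shown because they were the carriers called at E19 in every analysis. Each line gives the 250 bases before the annotated start from the RefSeq table of GRCr8, read 5′ to 3′ on the strand of the gene, here the plus strand for both. Both strands were searched, and capitals mark every match. The GC box was spelled GGGCGG, or CCGCCC on the other strand. The CCAAT box was also read as ATTGG, and the TATA box was spelled TATAAA or, on the other strand, TTTATA. The E-box CACGTG reads the same on both strands. The window of Slc19a2 lies at chr13:79134868-79135117 and that of Slc5a6 at chr6:31040150-31040399.
Slc19a2: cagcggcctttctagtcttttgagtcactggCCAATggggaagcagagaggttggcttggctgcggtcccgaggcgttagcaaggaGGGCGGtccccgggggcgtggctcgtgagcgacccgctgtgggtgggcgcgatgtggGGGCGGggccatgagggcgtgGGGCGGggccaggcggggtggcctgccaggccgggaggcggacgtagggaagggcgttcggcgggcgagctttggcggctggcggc
Slc5a6: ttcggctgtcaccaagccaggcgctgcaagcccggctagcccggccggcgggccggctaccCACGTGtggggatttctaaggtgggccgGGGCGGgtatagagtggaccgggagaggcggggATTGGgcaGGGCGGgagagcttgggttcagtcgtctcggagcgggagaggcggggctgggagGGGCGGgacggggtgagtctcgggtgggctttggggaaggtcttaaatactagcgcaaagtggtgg
The Slc19a2 window was 72.4% G and C, with 3 GC boxes at 164, 107 and 86 bases before the start and 1 CCAAT box at 219. The Slc5a6 window was 68% G and C, with 3 GC boxes at 161, 120 and 66 bases, 1 CCAAT box on the other strand at 128 and 1 E-box at 189. Neither held TATAAA. Among 33469 windows of the same table, 30.5% held a GC box, 34% a CCAAT box, 5.59% the E-box and 12.9% the TATA box. A window was listed for 6 of the 7 carriers, all but Folr1, and each of the 6 held 1 GC box or more. These matches describe letters, and no binding was measured.

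The vitamin C carriers differed in whether they were measured at all. Slc23a2, which encodes the ascorbate transporter SVCT2, read 4285 and 4324 units at E19, 4202 and 4262 at P2, then 5937 and 4914 in the adult. The adult arrays were the highest but differed from each other by 18.9% of their mean, against 0.911% at E19 and 1.42% at P2. The log2 difference was -0.33 at E19 (interval -0.62 to -0.03, limma adjusted p = 0.0613) and -0.35 at P2 (interval -0.65 to -0.06, limma adjusted p = 0.0543), and neither passed. Without adult replicate 2, the lower of the adult arrays, the log2 differences were -0.46 and -0.49. With all arrays kept, both stages passed with a filter at 200 units or each array centred on its median. They also passed with values under 100 set to 100, with 50 units added before log2, or with limma's prior spread following intensity. At each stage, 9 of the 16 alternative analyses left the result as it was. The other probe set of Slc23a2 stayed under 100 units on all arrays and was not tested. Its lowest and highest values, 3.95 and 72.5 units, were those of adult replicates 1 and 2. Averaging both probe sets turned the sign of the log2 difference, to 0.71 at E19 and 0.47 at P2, with limma adjusted p of 0.379 and 0.570.

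Slc23a1, which encodes SVCT1, read 38.0 and 60.1 units at E19, 39.3 and 30.6 at P2, then 2.90 and 17.6 in the adult. All 6 values lay below 100 units, the level the authors treated as background, so no order is read from them and no fold is given. The array gave only that Slc23a1 was not above this level at any stage.

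**Figure D2:**
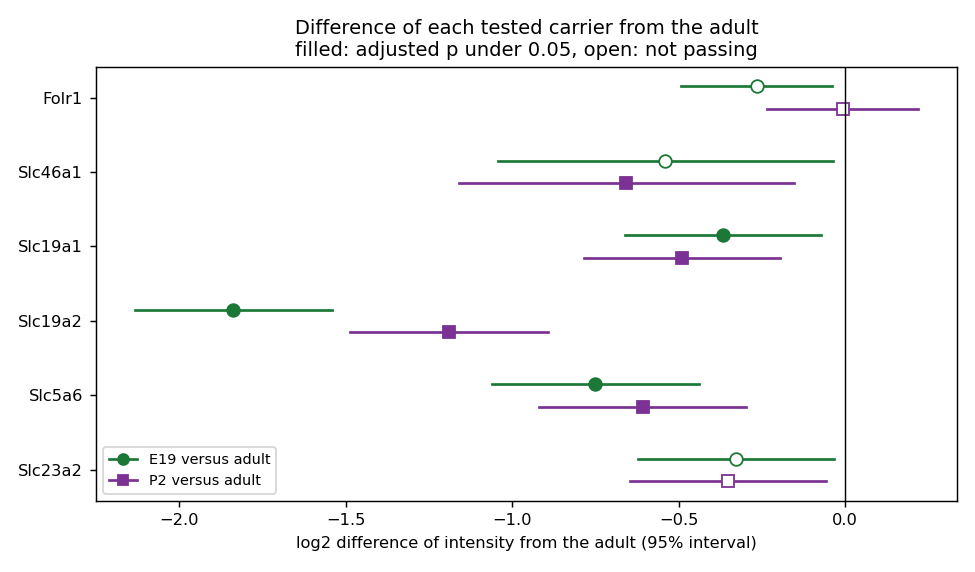
Log2 difference of intensity from the adult (horizontal axis) for the 6 tested carriers (vertical axis), at E19 (circles) and P2 (squares). Lines are 95% intervals, and filled symbols passed an adjusted p under 0.05 by limma. The symbols of Slc19a2 lie farthest left, at -1.84 and -1.19, and the interval of Folr1 at P2 spans 0.

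Between E19 and P2 most of the tested carriers were not called, which does not show that their levels were equal. Only Slc19a2 was called, at a 1.57-fold lower level at E19 than at P2 (log2 difference -0.65, interval -0.94 to -0.35, limma adjusted p = 0.0431), and this call was lost on leaving out any 1 of the 6 arrays (limma adjusted p from 0.0612 to 0.174). Folr1 was 1.20-fold lower at E19 than at P2 and did not pass (log2 difference -0.26, interval -0.49 to -0.03, limma adjusted p = 0.144). The log2 differences of the other 4 were 0.12 for Slc46a1 (interval -0.39 to 0.62), 0.12 for Slc19a1 (-0.17 to 0.42), 0.02 for Slc23a2 (-0.27 to 0.32) and -0.14 for Slc5a6 (-0.45 to 0.17), none of them called. Over all genes, 3.61% were called lower and 2.56% higher at E19 than at P2. The median over the carriers was -0.06, beside -0.01 over all genes.

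The other carriers and receptor of the same vitamins ran differently from one another. Folr2, the folate receptor beta gene known from macrophages, read 122 and 97.8 units at E19, 199 and 189 at P2, then 88.0 and 53.5 in the adult. P2 was the highest stage and overlapped with no other. Because both adult arrays were under 100 units, the difference is a bound: Folr2 was at least 1.94-fold above the adult at P2 (limma adjusted p = 0.00783). At E19 an array of Folr2 lay under 100 units too, so no fold is given, and the difference did not pass (limma adjusted p = 0.0775). The summed intensity of 15 macrophage and myeloid markers was 4571 and 4650 units at E19, 7514 and 5973 at P2, then 10010 and 9924 in the adult. Lyz2 alone gave 6048 and 6018 units of the adult sums. Of the 13 markers tested, 8 were called higher and 2 lower at P2 than in the adult. Their part in the Folr2 difference was not tested.

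Slc2a1 encodes the glucose transporter GLUT1, which also carries dehydroascorbate, the oxidised form of vitamin C. It read 3018 and 3242 units at E19, 1658 and 1327 at P2, then 1781 and 1591 in the adult. Both E19 arrays were above all others, while P2 and adult overlapped. The gene was 1.86-fold higher at E19 than in the adult (log2 difference 0.89, interval 0.54 to 1.25, limma adjusted p = 0.00489) and 2.11-fold higher than at P2 (limma adjusted p = 0.0254). At P2 its log2 difference from the adult was -0.18 (interval -0.54 to 0.18, limma adjusted p = 0.323). No probe set was matched to the further thiamine carrier gene Slc19a3, which was not analysed here.

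Lists of other genes that handle these vitamins, and a list of other B vitamins, were read in the same fit. Of 102 names listed, 89 had a probe set and 74 were tested, of which 18 were called higher and 23 lower than the adult at E19, and 14 higher and 18 lower at P2. Over all genes, 31.4% were called higher and 25.2% lower at E19, and 28.8% and 21.8% at P2. The median log2 difference of the list genes was -0.11 at both stages, beside 0.04 and 0.05 over all genes. When each array was centred on its median, the calls became 9 higher and 37 lower at E19 and 8 higher and 36 lower at P2, and over all genes the share of calls that were higher went from 55.4% to 33.3% at E19 and from 56.9% to 34.3% at P2. Each list is given with its counts before and after this centring, beside the shares of all genes. After centring, 20.2% of all genes were called higher and 40.4% lower at E19, and 19% and 36.4% at P2. Before centring, the list of other B vitamins gave 0 of the higher calls, and 4 of the lower calls at E19 and 6 at P2.

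The thiamine list held no gene called higher. It comprised carriers and the enzymes that use thiamine diphosphate, with 9 tested. Of these, 6 were called lower at E19 and 4 at P2, beside 25.2% and 21.8% of all genes, and the median log2 differences were -0.39 and -0.21. With median centring the counts were 6 and 7. Pdha1, a subunit of pyruvate dehydrogenase, read 2022 and 1975 units at E19, 2558 and 2677 at P2, then 4291 and 4341 in the adult. Its stages did not overlap, as for Slc19a2, and the gene was 2.16-fold lower at E19 (limma adjusted p = 0.000474) and 1.65-fold lower at P2 (0.00212). Ogdh, a subunit of 2-oxoglutarate dehydrogenase, read 2026 and 2333 units at E19, 1805 and 1634 at P2, then 4338 and 4326 in the adult. It lay 1.99-fold below the adult at E19 and 2.52-fold at P2 (limma adjusted p = 0.00159 and 0.000856), and the P2 arrays were the lowest.

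Folate cycle enzymes went both ways. Of 17 tested, 10 were called higher and 4 lower at E19, beside 31.4% and 25.2% of all genes, and 7 higher and 3 lower at P2, beside 28.8% and 21.8%. With median centring they were 4 higher and 6 lower at E19, and 5 higher and 7 lower at P2. The balance of the list turned there, as it did over all genes. With quantile normalization the balance did not turn, at 6 higher and 4 lower at E19, and 5 higher and 3 lower at P2. Their median log2 difference was 0.43 at E19 and 0.13 at P2, or 0.29 and 0.02 with genes under 100 units on both arrays of a stage set at their bound. Fpgs, which adds the glutamate tail that keeps folate in the cell, read 552 and 386 units at E19 and 753 and 631 at P2. Its adult arrays read 21.5 and 71.1 units, both under 100, so Fpgs was higher at least 4.69-fold at E19 and 6.92-fold at P2 (limma adjusted p = 0.00526 and 0.00397). Gart, an enzyme of purine synthesis that uses formyl folate, was 2.39-fold higher at both stages, with 460 and 488 units at E19, 460 and 488 at P2, then 221 and 178 in the adult (limma adjusted p = 0.0013 and 0.00164). Mthfd1l, of mitochondrial one-carbon metabolism, was higher at least 1.94-fold at E19 and 1.15-fold at P2 (limma adjusted p = 0.0166 and 0.0372). Ftcd, of histidine breakdown, was higher at least 1.18-fold at E19 (limma adjusted p = 0.0116). At P2 Ftcd was called higher (limma adjusted p = 0.0298), but it read 82.2 and 121 units there, so no fold is given. The Mthfd1l call at E19 ended without either E19 array or with no filter, and its P2 call in 8 of the 16 alternatives, among them quantile normalization and values under 100 set to 100. The Ftcd call at E19 was lost without E19 replicate 1, with no filter and with values under 100 set to 100, and its P2 call in 12 alternatives, among them both other scalings, values under 100 set to 100 and leaving out any array but P2 replicate 1.

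Aldh1l1, the cytosolic formyltetrahydrofolate dehydrogenase, went the opposite way. It read 77.6 and 123 units at E19, 123 and 59.6 at P2, then 712 and 629 in the adult, for log2 differences of -2.78 (limma adjusted p = 0.0036) and -2.97 (0.00359). Both perinatal stages straddled 100 units and lay far below the adult. Aldh1l1 is also known as an astrocyte gene, and the summed intensity of 7 astrocyte and oligodendrocyte markers was 350 and 370 units at E19, 977 and 615 at P2, then 3659 and 1887 in the adult. Of the 5 tested, 5 were called lower at E19 and 3 at P2. Among them, Aqp4, the astrocyte water channel gene, read 194 and 233 units at E19, 710 and 404 at P2, then 798 and 817 in the adult. The part of such cells in the Aldh1l1 difference was not tested.

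Among the folate exporters and the mitochondrial carrier, Abcc1 was 2.36-fold lower at both stages, with 1007 and 1016 units at E19, 1112 and 922 at P2, then 2311 and 2474 in the adult (limma adjusted p = 0.00101 and 0.00131). The exporter gene Abcg2 was at least 1.18-fold higher at E19, where it read 119 and 117 units, than in the adult, where both arrays were under 100 (limma adjusted p = 0.00146). Abcg2 was also called higher at P2, at 79.6 and 70.8 units (limma adjusted p = 0.0142). All P2 and adult arrays lay under 100, so no fold is given, and that call was lost in 6 alternatives. Slc25a32, the mitochondrial folate carrier gene, was at least 1.38-fold lower at E19, with 69.9 and 51.6 units beside 143 and 133 in the adult (limma adjusted p = 0.00455). At P2 it read 110 and 89.5 units and did not pass (log2 difference -0.48, interval -0.95 to -0.01, limma adjusted p = 0.0831). With Folr2, 4 folate carriers and receptors were tested. Of these, 1 was called higher and 2 lower at E19, and 2 higher and 1 lower at P2. With median centring, 1 was higher and 2 lower at each stage. The shares of all genes were 31.4% higher and 25.2% lower at E19, and 28.8% and 21.8% at P2.

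Of 7 tested genes of vitamin C carriers, recycling and synthesis, 2 were called higher and 1 lower at E19, and 1 higher at P2. Of 10 tested hydroxylases that need vitamin C, 2 were called higher and 2 lower at E19, and 3 higher at P2. The shares of all genes were 31.4% higher and 25.2% lower at E19, and 28.8% and 21.8% at P2. With median centring the first list had 1 higher and 3 lower at E19 and 2 lower at P2, and the hydroxylases 2 higher and 5 lower, then 2 higher and 3 lower. P4ha3, a subunit of collagen prolyl hydroxylase, read 232 and 173 units at E19, 185 and 168 at P2, then 24.4 and 8.64 in the adult. The gene was higher at least 2.02-fold at E19 and 1.76-fold at P2 (limma adjusted p = 0.0027 and 0.00391). The summed intensity of 10 fibroblast and matrix markers was 26197 and 25754 units at E19, 31098 and 27897 at P2, then 15834 and 17211 in the adult, and its part in the P4ha3 difference was not tested.

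Of 17 tested enzymes of biotin, pantothenate and lipoate, 3 were called higher and 4 lower at E19, and 1 higher and 4 lower at P2, and the share called lower was close to that of all genes (25.2% and 21.8%). With median centring, 1 was higher and 9 lower at E19, and 8 were lower at P2. Lipt2, an enzyme of lipoate synthesis, read 518 and 422 units at E19, 315 and 459 at P2, then 212 and 202 in the adult. It was higher by 1.17 on the log2 scale at E19 and by 0.87 at P2 (limma adjusted p = 0.00738 and 0.0214). The P2 call of Lipt2 ended without P2 replicate 2 or either adult array, with no filter, and with either other scaling. The list of other B vitamins held no gene called higher, with 4 of 10 called lower at E19 and 6 at P2, and 6 and 7 with median centring. Tcn2, the vitamin B12 carrier protein transcobalamin, was below the adult 1.93-fold at E19 and 2.04-fold at P2, reading 2569 and 2545 units, 2374 and 2465, then 5118 and 4756 in the adult (limma adjusted p = 0.000873 and 0.000902). Mmut, the B12-dependent methylmalonyl-CoA mutase, read 1637 and 1623 units at E19, 1466 and 1498 at P2, then 3267 and 3920 in the adult, and was 2.20-fold and 2.42-fold lower (limma adjusted p = 0.00116 and 0.00107).

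**Figure D3:**
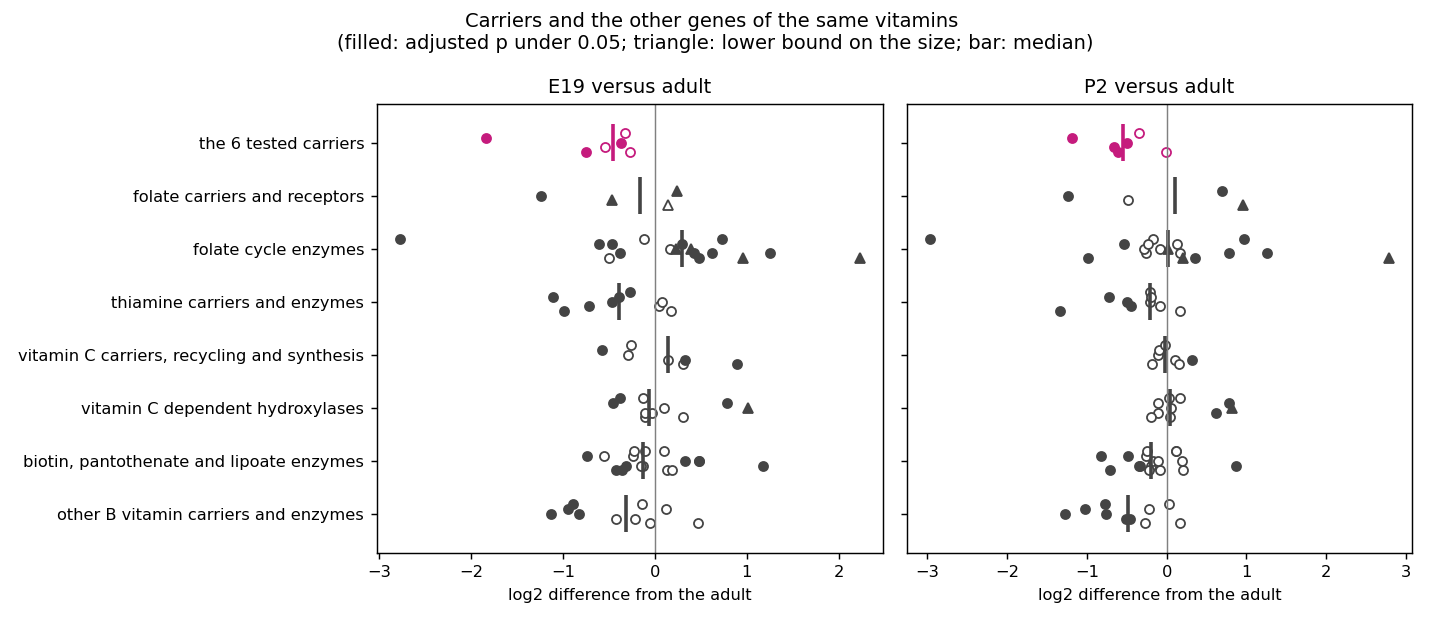
Log2 difference from the adult (horizontal axis) of the 6 tested carriers and of the tested genes of 7 lists (vertical axis). The lists cover the same vitamins and other B vitamins, and the panels show E19 (left) and P2 (right). Each point is a gene, filled where the adjusted p by limma was under 0.05, triangles stand at a lower bound on the size where a stage had both arrays under 100 units, and each bar is a median of the plotted values. No point of the carriers lies to the right of 0, and the folate cycle enzymes lie on both sides of it.

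For each tested carrier, the genes with the most similar course over the 6 arrays were named by the root mean square distance of log2 intensity centred on each gene's mean, over 10333 other genes. Closest to Slc19a2 were Entpd4 (distance 0.0752), Rnf130 (0.0879) and Hfe (0.0879), where the median gene stood at 0.804. Closest to Slc5a6 were C3h9orf50 (0.0266), Gsdmd (0.0464) and Zfp597 (0.0468), with a median of 0.415. For Slc19a1 they were Ubr1 (0.0389), Slc38a10 (0.0415) and Uba1 (0.0456), for Folr1 Cd151 (0.0222), Cr1l (0.0278) and Fam8a1 (0.0306), for Slc23a2 Ssr1 (0.0188), Psmd1 (0.0412) and Pelo (0.0419), and for Slc46a1 Echdc3 (0.0758), Atp6v0b (0.0886) and Pabir2 (0.099). With 6 arrays and 10333 genes, some genes lie close to any course, and the distances are a description.

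The labelled tissue was checked against cell type markers. Of 15 choroid plexus epithelium markers, 13 reached 100 units on both arrays of each stage, among them Ttr, the transthyretin gene, at 12750 and 13345 units at E19 and 14847 and 11640 in the adult. Kcnj13, an epithelial potassium channel gene, and Car12 stayed under 100 units on every array. The summed epithelial intensity was 111270 and 112370 units at E19, 114370 and 110080 at P2, then 136790 and 131260 in the adult, so it lay higher in the adult, as did the carriers that passed. Prlr, the prolactin receptor gene, alone went from 635 and 816 units at E19 to 15269 and 16148 in the adult. Of the 13 tested epithelial markers, 4 were called higher and 5 lower at E19, and 2 higher and 5 lower at P2. The shares of all genes were 31.4% higher and 25.2% lower at E19, and 28.8% and 21.8% at P2.

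Other cell types moved with stage too. All 12 endothelial markers were called higher at both perinatal stages, with sums of 12184 to 13120 units against 2291 and 2302 in the adult, and all 11 tested cell cycle genes were higher, with sums of 11980 to 13126 against 4387 and 4473. Mural cell markers summed to 4074 to 4439 units before and after birth and to 1028 and 1054 in the adult, erythroid markers to 18225 to 22255 and to 14937 and 14532, and neuronal markers to 492 to 902 and to 714 and 551. No marker was at 0 on any array. The adult arrays thus carried less signal from markers of vessels and dividing cells, and the part of this in the carriers' differences was not tested.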

How the data were processed

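Total RNA of each pool (100 ng) was amplified, labelled with biotin and hybridised to GeneChip Rat Genome 230 2.0 arrays, 1 array per pool. The deposited values are linear signal intensity, which the authors computed with the MAS5 algorithm of Affymetrix Expression Console (versions not given in the sources used here), scaling each array as a whole. Of 31099 probe sets, 57 controls were removed, and 20832 carried a single gene symbol, 436 several and 9831 none. Symbols were updated through the RefSeq table of GRCr8, which matched 20764 of the single-gene probe sets, and there were 0 value columns of no sample. Between 50.0% and 53.5% of probe sets reached 100 units on an array, and 99.6% to 99.9% of those at 100 units or more in both pools of a stage lay within 2-fold of each other.

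A probe set was tested if its mean reached 100 units in any stage, which held for 17808. The log2 intensity was modelled over the 6 arrays by limma (version 3.58.1, under R version 4.3.3), with each stage having its own mean, 3 residual and 2.15 prior degrees of freedom, after the script had been tested on simulated data. P-values were two-sided and adjusted by Benjamini-Hochberg, comparison by comparison, over the 17808 probe sets, with a threshold of 0.05. They measure the spread between pools, and 2 pools per stage limit the precision. A fold against a stage with both arrays below 100 units is a bound, computed against 100. No such fold is printed where the brighter stage also had an array below 100. The sample labels number the pools, but correlations of same-numbered deviations (-0.04, 0.01 and -0.06) gave no sign of pairing, so no block was used.

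The carriers and the lists were chosen with earlier results of these data known. List genes were named where they were called with an absolute log2 difference of at least 1 from the adult, as were Slc2a1 and Folr2 whatever their values (the rule also held Slc19a3, to which no probe set was matched), and 3 genes were named per carrier by likeness. Not every list gene that met the rule has all its values printed. Markers were named where a result turned on them. The names Mut and Mmut on the B vitamin list are 1 gene. Alternatives were the filter, the scaling, the handling of low values, the spread estimate, the arrays in the fit, the replicate block, each array left out and the mean of a gene's probe sets.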

Additional observations from a re-analysis of the deposited data

How the results depend on the processing

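With 2 pools per stage, a call near the threshold moves with most choices, and arrays near background limit Slc46a1 and Slc23a1. At E19 versus the adult, 3 carriers were called, which became 5 with a filter at 200 units, with values under 100 set to 100 or with an intensity trend in the prior, and 6 with median centring or log2(intensity + 50). Under median centring 40.4% of all genes were called lower, and the median of all genes moved from 0.04 to -0.24 on the log2 scale. Leaving out 1 array gave 2 to 3. At P2 versus the adult, the 4 became 1 with no filter and 2 to 4 with 1 array left out. At E19 versus P2, the 1 became 2 with the intensity trend and 0 with no filter, with 2 stages only, with the replicate block or with any 1 array left out, where limma gave 1 or 2 carriers at an unadjusted p under 0.05. The list genes called went from 41 to 22 with no filter and to 23 to 39 with 1 array left out at E19, and from 32 to 18 and to 22 to 27 at P2. At E19 versus P2 the 4 became 0 with no filter or the replicate block, 9 with values under 100 set to 100, 8 with log2(intensity + 50), 10 with the intensity trend, 2 with the mean of all probe sets and 0 to 3 with 1 array left out. Over all genes, P2 versus adult fell from 5236 to 3231 with no filter. E19 versus P2 went from 638 to 0 with no filter, 989 at 200 units, 1244 with values under 100 set to 100, 1157 with log2(intensity + 50), 1605 with the trend, 59 with the replicate block and 0 to 552 with 1 array left out. The sign turned for Slc23a2 when its probe sets were averaged (0.71 at E19 and 0.47 at P2 versus the adult) and for Folr1 at P2 with quantile normalization (0.12). It also turned with 1 array left out for Folr1 at P2 (-0.0741 to 0.0585) and, at E19 versus P2, for Slc46a1 (-0.0800 to 0.314), Slc19a1 (-0.00854 to 0.257) and Slc5a6 (-0.287 to 0.00219). None of these turned values was called. With the replicate block, Slc19a1 at E19 and Slc46a1 at P2 also lost their calls (limma adjusted p = 0.0573 and 0.0714), while 2 and 3 carriers stayed called against the adult. Quantile normalization ended the call of Slc19a1 at E19 and made that of Slc46a1 (limma adjusted p = 0.0675 and 0.0313). The causes were not tested.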
